A study of Mus musculus with 6 samples.

Results

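The genes described here are 10 that build and load MHC class I molecules in mouse liver, namely the heavy chain genes H2-K1, H2-D1, H2-Q4, H2-Q5, H2-Q6, H2-Q7, H2-Q10 and H2-T23, the light chain gene B2m, and the peptide transporter gene Tap1. They were taken by gene symbol from a table of 56674 rows, and all 10 were found. Poly(A) RNA of the livers of male C57BL/6 mice was sequenced from animals labelled 71 weeks that were fed chow with PB-MP, a polypropylene black microplastic (3 libraries), or normal chow (control, 3 libraries). The groups follow the sample titles and the treatment labels, since a general treatment note naming PB-MP chow stands on all 6 samples, controls included. C57BL/6 is an inbred strain, both groups were reared alike, and no genetic alteration is named. The dose of PB-MP, the age at which feeding began, and whether the 71 weeks are an age or a feeding period are not stated. The labels do not state whether each library is a different animal, so p-values measure the spread between these libraries, which may be technical. The comparison asks whether exposure to the plastic was accompanied by a change in the expression of these genes.

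Class I molecules sit on the surface of nearly all nucleated cells and show peptides from inside the cell to CD8 T cells and to natural killer (NK) cells. A heavy chain pairs with beta-2-microglobulin, the product of B2m, and takes up a peptide that the transporter of Tap1 and Tap2 has carried into the endoplasmic reticulum. C57BL/6 mice have the classical heavy chains H2-K1 and H2-D1 and a larger set of nonclassical ones in the Q and T regions of the same complex, of which H2-Q10 encodes a secreted molecule made mainly by hepatocytes. Transcription of these genes is raised by interferon, and depends on an enhancer with kappaB and interferon response elements and on a promoter module bound by the transactivator NLRC5.

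RefSeq promoter windows on GRCm38.p6 (250 bases before to 50 after an annotated start site) were matched for 9 of the 10 members, in 10 windows, since H2-K1 has 2 start sites. H2-Q5 had no window. Stretches of 8 of these are printed because they show the module that the heavy chain genes share and the places where single genes depart from it. Each stretch runs 5′ to 3′ from 30 bases before to 100 bases after the interferon element. Capitals mark matches to the motifs searched on both strands. A match on the opposite strand is in capitals as its reverse complement, as in ATTGG for CCAAT. The motifs were the interferon response element (GAAA, 2 bases of any kind, GAAA), a shorter form of it (GAANNGAAA), which was added after the sequences had been seen and overlaps the first, a kappaB form with the letters GGGANTTCC, the class I kappaB form given by the first capitals of H2-K1, the X2 core TGACG, and the Y box CCAAT. The stretches lie at chr17:34000329-34000467 (minus strand) for H2-K1, chr17:35262914-35263052 (plus strand) for H2-D1, chr17:35379434-35379572 (plus strand) for H2-Q4, chr17:35424668-35424806 (plus strand) for H2-Q6, chr17:35439012-35439150 (plus strand) for H2-Q7, chr17:35469904-35470042 (plus strand) for H2-Q10, chr17:36032716-36032855 (minus strand) for H2-T23, chr2:122147518-122147657 (plus strand) for B2m.
H2-K1: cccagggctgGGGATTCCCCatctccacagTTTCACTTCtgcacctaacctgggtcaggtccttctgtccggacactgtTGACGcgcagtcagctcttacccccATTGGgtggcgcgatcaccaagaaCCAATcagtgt
H2-D1: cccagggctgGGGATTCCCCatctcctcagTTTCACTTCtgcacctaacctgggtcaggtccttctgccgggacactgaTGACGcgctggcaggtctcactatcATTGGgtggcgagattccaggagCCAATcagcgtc
H2-Q4: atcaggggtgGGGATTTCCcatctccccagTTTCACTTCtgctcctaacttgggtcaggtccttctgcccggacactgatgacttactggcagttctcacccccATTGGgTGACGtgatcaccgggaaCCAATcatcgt
H2-Q6: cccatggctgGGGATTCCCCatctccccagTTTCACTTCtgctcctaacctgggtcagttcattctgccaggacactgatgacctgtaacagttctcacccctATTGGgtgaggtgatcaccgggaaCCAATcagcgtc
H2-Q7: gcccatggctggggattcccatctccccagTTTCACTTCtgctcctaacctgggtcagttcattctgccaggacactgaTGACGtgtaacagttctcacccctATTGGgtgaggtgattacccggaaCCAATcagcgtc
H2-Q10: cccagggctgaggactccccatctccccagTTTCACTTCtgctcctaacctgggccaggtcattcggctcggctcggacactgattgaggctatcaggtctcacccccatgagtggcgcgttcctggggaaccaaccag
H2-T23: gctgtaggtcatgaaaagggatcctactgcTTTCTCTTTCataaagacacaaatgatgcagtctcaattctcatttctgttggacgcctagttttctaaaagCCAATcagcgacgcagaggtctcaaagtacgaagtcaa
B2m: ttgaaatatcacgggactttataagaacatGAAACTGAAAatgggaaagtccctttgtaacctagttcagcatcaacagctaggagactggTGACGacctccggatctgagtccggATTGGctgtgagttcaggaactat

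H2-K1, H2-D1 and H2-Q6 held the class I kappaB form, which occurs in a window of 0.0999% of the 27025 gene symbols with a window (0.0852% of all 32851 windows), and H2-Q4 held the other kappaB form, found for 1.92% of symbols (1.68% of windows). H2-Q7 and H2-Q10 held neither. The shorter interferon element was present in 6 members, the heavy chain genes H2-K1, H2-D1, H2-Q4, H2-Q6, H2-Q7 and H2-Q10, against 8.68% of symbols (7.52% of windows). B2m and H2-T23 carried the full interferon response element, which is found for 3.99% of symbols (3.44% of windows). The X2 letters were found in 6 of the 9 members, against 23% of symbols (20.8% of windows), and the Y box in 8 of the 9, against 41.1% (37.4%). The match of H2-Q4 within the printed stretch lies 3′ of the first Y box, at -73 to -69 from the start site with the Y box at -79 to -75, whereas in H2-K1, H2-D1 and H2-Q7 it lies 5′ of it. H2-Q10 was the 1 member of the 9 in whose window neither the X2 letters nor the Y box was found. These matches are descriptions of letters in a window and show no binding.

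**Figure D1:**
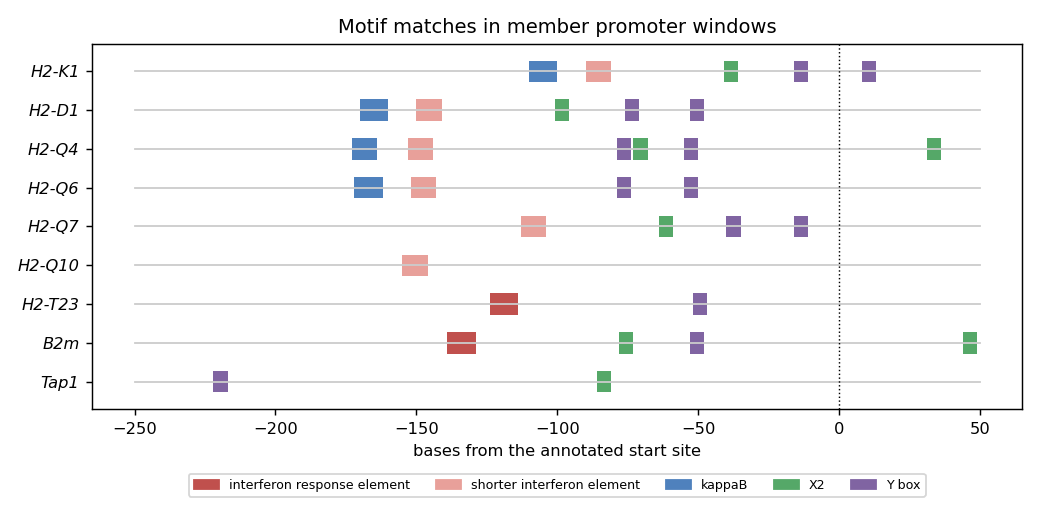
Matches to the searched motifs in the promoter windows of 9 members, as coloured boxes along the distance in bases from the annotated start site (dotted line). H2-Q10 shows 1 box, the shorter interferon element, whereas H2-K1 and H2-D1 show a kappaB match, that element, an X2 match and 2 Y boxes in the same order.

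The heavy chain genes are close copies of each other, which limits what a count per gene can tell. Of all 50-base words in the GENCODE M21 transcripts of H2-Q5, 36.4% also occurred in a transcript of another gene, most often H2-Q7. The share was 32.0% for H2-Q6, 26.4% for H2-Q7, 21.8% for H2-Q4, 19.0% for H2-Q10, 13.6% for H2-T23, 12.8% for H2-D1 and 9.63% for H2-K1. With 100-base words it was 14.0% for H2-Q5 and 0.957% for H2-K1. B2m shared 0 of its 811 words of 50 bases with any other gene, and Tap1 shared 0.442%, all with Tap2. How the authors counted reads that map to several places is not stated, so the values of the Q genes are uncertain.

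Library totals ran from 70603124 to 90483598 reads in PB-MP and from 68357478 to 112566641 in control. The hepatocyte markers Alb, Apoa1, Ttr, Tat, Serpina1a, Cyp2e1 and Hnf4a together stood at 66488 to 77990 CPM in PB-MP and 61432 to 78436 in control, and were thus abundant in every library. CPM here are counts scaled to library size adjusted by the trimmed mean of M-values (TMM), whose factors did not overlap, at 1.04 to 1.12 in PB-MP and 0.887 to 0.961 in control. Transcripts of the mitochondrial genome took 9.24% to 11.3% of the reads in PB-MP and 14.9% to 16.4% in control, and the part of this difference in the scaled values was not tested. With library size alone as the scaling, the median log2 fold change of all genes was 0.23, against 0.0067 with TMM, so each estimate below would stand about that much higher. By the chi-square of counts per degree of freedom, which also grows with depth, control replicate 2 was nearer to PB-MP replicate 2 (270) than to control replicates 1 and 3 (494 and 763.7), and PB-MP replicate 3 was at 507.1 or more from every other library. Values without these libraries are given where they change a result.

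None of the 10 members differed between PB-MP and control past an adjusted p of 0.05 (edgeR quasi-likelihood test, Benjamini-Hochberg adjustment over 17871 genes), and neither did any other gene, at 0% of all genes in each direction. All 10 members passed the filter on low counts. H2-Q5 was higher and B2m was lower in PB-MP at an unadjusted p below 0.05, which is 1 of 10 in each direction, where 7.35% of all genes were higher and 4.74% were lower by that rule (12.1% in either direction). PB-MP and control values were fully apart for 4 of 10 members, H2-Q5 on the higher side and H2-K1, H2-D1 and B2m on the lower, beside 11.4% and 8.49% of all genes on these sides and 19.8% on either. The median log2 fold change was -0.23 over the members and 0.0067 over all genes, with 3 of 10 members above 0, where 50.6% of all genes were, and 7 of 10 below 0, where 49.4% were. DESeq2 called 1 member, H2-Q5, where it called 2.04% of genes higher and 0.988% lower (3.03% in either direction), and limma-voom called 0 members. In bulk tissue, fewer cells of a type and less RNA per cell cannot be told apart.

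H2-K1 encodes the classical heavy chain K. Its level was 956, 906 and 466 CPM in the PB-MP libraries, listed by replicate number, against 1264, 960 and 1187 CPM in control. The groups did not overlap, but PB-MP replicate 1 lay within 1% of control replicate 2, and the lowest value by far was PB-MP replicate 3. The log2 fold change of H2-K1 was -0.55 ± 0.30 (SE; 95% interval -1.25 to 0.15, edgeR adjusted p = 0.497). Without PB-MP replicate 3 it was -0.29 ± 0.18, and with any 1 library left out it ran from there to -0.73. The separation was lost, with 2 in place of 3 members lower without overlap, under upper quartile factors, no filter, a stricter filter and without rRNA and mitochondrial rows, and it was also lost with library size only.

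H2-D1 encodes the other classical heavy chain of this strain. It had 503, 528 and 456 CPM in the PB-MP libraries, against 666, 585 and 622 CPM in the control libraries. Every PB-MP value was below every control value, and the spread within each group was small, at 496 ± 36.5 CPM in PB-MP and 624 ± 40.6 CPM in control (SD, n = 3 each). Its log2 fold change was -0.33 ± 0.15 (95% interval -0.70 to 0.032, edgeR adjusted p = 0.444). With library size only it was -0.12, where the median of all genes was 0.23, and the groups overlapped. PB-MP replicate 3 was the lowest library for both classical genes, but by much more for H2-K1. It had 1.02 H2-K1 reads per H2-D1 read, against 1.90 and 1.72 in the other PB-MP libraries and 1.90, 1.64 and 1.91 in control.

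H2-Q10 encodes the secreted liver class I molecule and had more reads than any other member. It stood at 2138, 1742 and 2222 CPM in PB-MP, against 3023, 1990 and 2568 CPM in control. PB-MP replicate 2 was lowest, and control replicate 2 lay below PB-MP replicates 1 and 3, so the groups overlapped. Its log2 fold change was -0.31 ± 0.22 (95% interval -0.84 to 0.22, edgeR adjusted p = 0.612), and it was -0.49 without control replicate 2 and -0.17 without control replicate 1.

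H2-T23 encodes the heavy chain of Qa-1, which presents leader peptides of other class I molecules to an inhibitory receptor of NK cells. Its values were 211, 166 and 176 CPM in PB-MP and 218, 191 and 223 CPM in control, which overlapped through PB-MP replicate 1. This gave a log2 fold change of -0.19 ± 0.16 (95% interval -0.57 to 0.19), and it was 0.029 with library size as the only scaling, where the median of all genes was 0.23. With 1 library left out it ran from -0.30 (without PB-MP replicate 1) to -0.12 (without PB-MP replicate 2). The gene is annotated over an opposite-strand transcript, A930015D03Rik, whose row held at most 0.579 CPM in any library.

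H2-Q4, H2-Q6 and H2-Q7 are nonclassical genes of the Q region, and H2-Q7 encodes Qa-2, which is tethered to the membrane by a lipid anchor. H2-Q7 had 44.8, 43.1 and 49.2 CPM in PB-MP and 48.2, 37.0 and 32.9 CPM in control. The highest control library lay inside the PB-MP range, and the log2 fold change was 0.22 ± 0.18 (95% interval -0.22 to 0.65), or 0.093 without control replicate 3 and 0.38 without control replicate 1. H2-Q4 ran from 25.7 to 31.2 CPM in PB-MP and from 23.8 to 27.8 CPM in control, at a log2 fold change of 0.17 ± 0.16 (95% interval -0.20 to 0.55), or 0.10 without control replicate 2 and 0.11 without PB-MP replicate 1. H2-Q6 ran from 11.7 to 17.5 CPM in PB-MP and from 12.9 to 21.4 CPM in control, at -0.18 ± 0.26 (95% interval -0.78 to 0.43). The estimate for H2-Q6 was -0.33 without control replicate 3 or PB-MP replicate 1, and its sign turned without control replicate 1, to 0.055, with library size only, to 0.043, and when its reads were added to those of H2-Q7, to 0.11. For these 3 genes the groups overlapped, and a 2-fold difference lies outside each of the intervals.

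H2-Q5 was the member with the largest log2 fold change, and it is annotated as a pseudogene, polymorphic in GENCODE M21 and transcribed in RefSeq. It had 257, 223 and 207 reads in PB-MP, against 47, 59 and 86 reads in control. This came to 3.26, 2.64 and 2.12 CPM in PB-MP and 0.645, 0.974 and 0.818 CPM in control. The lowest PB-MP library was above the highest control library, and no single library set the difference. The log2 fold change was 1.72 ± 0.29, a 3.29-fold higher level in PB-MP (95% interval 1.03 to 2.40, edgeR unadjusted p = 5.51e-04, adjusted p = 0.207). DESeq2 gave an adjusted p of 1.09e-04 for the same counts, and over the alternatives that kept H2-Q5 as a row of its own the adjusted p ran from there to 0.519. With 1 library left out in turn, the log2 fold change stayed between 1.55 and 1.86. H2-Q5 had 0.0727, 0.0611 and 0.0432 reads per H2-Q7 read in PB-MP, against 0.0134, 0.0263 and 0.0249 in control, with every PB-MP ratio above every control ratio (exact permutation test over 10 splits, two-sided, p = 0.1, the smallest that 3 against 3 libraries allow, 8 such ratios computed, Benjamini-Hochberg adjusted p = 0.267).

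B2m encodes the light chain that all class I heavy chains need. It stood at 1303, 1264 and 1368 CPM in PB-MP, against 1817, 1690 and 1870 CPM in control. The groups were well apart, at 1312 ± 52.3 CPM in PB-MP and 1792 ± 92.6 CPM in control (SD, n = 3 each). The log2 fold change was -0.45 ± 0.16, or 0.732 times the control level (95% interval -0.83 to -0.068, edgeR unadjusted p = 0.0271, adjusted p = 0.353). The sign held in every alternative run, at -0.52 to -0.42 with 1 library left out in turn, but the unadjusted p was above 0.05 when PB-MP replicate 1, PB-MP replicate 2, control replicate 1 or control replicate 3 was left out. With library size only, B2m was at -0.23 while the median of all genes was 0.23.

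Tap1 encodes a subunit of the peptide transporter. It had 29, 23 and 18.8 CPM in PB-MP and 33.1, 23.6 and 29.1 CPM in control. The groups overlapped, with PB-MP replicate 3 lowest. Its log2 fold change was -0.28 ± 0.22 (95% interval -0.79 to 0.24, edgeR adjusted p = 0.653), and it was -0.14 without PB-MP replicate 3, -0.17 without control replicate 1, -0.45 without PB-MP replicate 1 and -0.43 without control replicate 2. Psmb9, a proteasome subunit gene on the opposite strand that overlaps Tap1, had 13.8, 7.12 and 11.2 CPM in PB-MP and 16, 11.9 and 16.5 CPM in control (log2 fold change -0.47 ± 0.28). With the strand setting not stated, reads from the stretch where these genes overlap cannot be told apart. The length of that stretch was not measured.

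**Figure D2:**
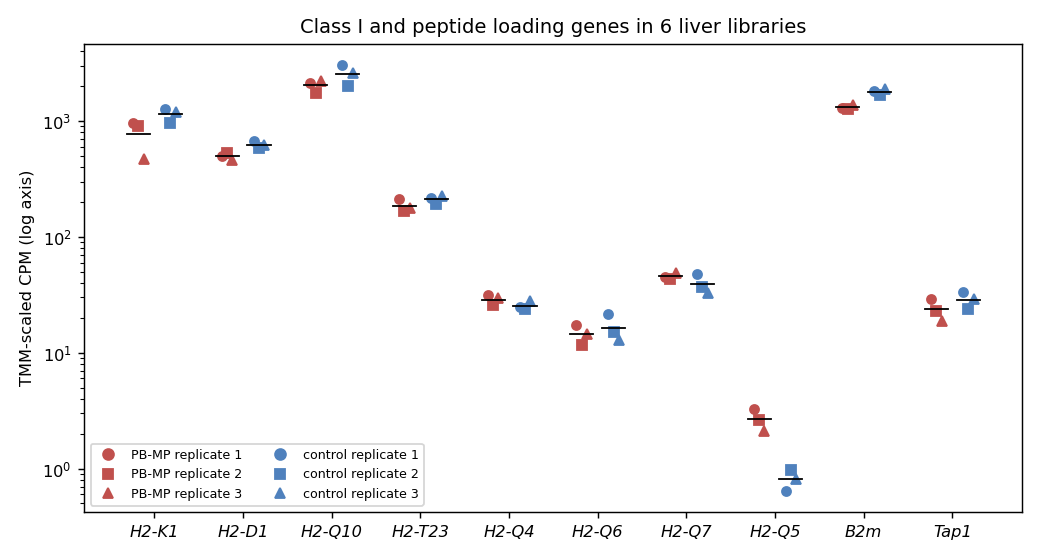
Level of each of the 10 members in each library, as TMM-scaled CPM on a log axis; red points are PB-MP and blue points control, shapes give the replicate and black bars the mean of 3 libraries. The H2-Q5 points of PB-MP (2.12 to 3.26 CPM) lie above those of control (0.645 to 0.974 CPM), and the B2m points of PB-MP lie below those of control.

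Per length of the principal transcript, the members covered a wide range and kept the same order in both groups. B2m was highest, at 1525 ± 60.9 CPM per kb in PB-MP and 2084 ± 108 in control (SD, n = 3 each). It was followed by H2-Q10 at 1022 ± 129 in PB-MP and 1269 ± 260 in control, H2-K1 at 479 ± 167 and, in control, 702 ± 97.6, and H2-D1 at 236 ± 17.4 and, in control, 297 ± 19.3. H2-T23 stood at 125 ± 15.9 CPM per kb in PB-MP and 143 ± 12.0 in control. H2-Q7, H2-Q4, Tap1 and H2-Q6 lay between 6.98 and 30.5 CPM per kb in PB-MP and between 7.89 and 26.3 in control, and H2-Q5 was lowest, at 2.68 ± 0.570 in PB-MP and 0.814 ± 0.165 in control. Neighbours in this order did not overlap within a group, except Tap1 and H2-Q6, which overlapped in both. With the length of all annotated exons in place of the principal transcript, H2-Q4 came before H2-Q7 and H2-Q6 before Tap1 in both groups.

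Summed over the 8 heavy chain members, which keeps reads that paralogs may share, the level was 3905, 3426 and 3416 CPM in PB-MP and 5267, 3803 and 4675 CPM in control. Control replicate 2 lay below PB-MP replicate 1, so the groups overlapped, at a log2 difference of -0.34 (exact permutation test, two-sided, p = 0.2). Without the TMM factors the difference was -0.13 (exact p = 0.6). H2-Q10 gave 54.7%, 50.8% and 65.0% of the heavy chain reads in PB-MP and 57.4%, 52.3% and 54.9% in control. H2-K1 gave 24.5%, 26.5% and 13.6% in PB-MP and 24%, 25.2% and 25.4% in control, so that PB-MP replicate 3 alone departed, with less H2-K1 and more H2-Q10. H2-D1 took 13.9% ± 1.35 in PB-MP and 13.8% ± 1.43 in control (SD, n = 3 each).

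The small shares of H2-Q7, H2-Q4 and H2-Q5 were the ones that separated the groups. A lower divisor raises a share by itself. The summed heavy chain level averaged 3582 CPM in PB-MP and 4581 CPM in control, with overlap. In CPM, H2-Q7 and H2-Q4 overlapped between the groups. H2-Q7 took 1.28% ± 0.147 of heavy chain reads in PB-MP and 0.864% ± 0.142 in control, and H2-Q4 took 0.802% ± 0.0559 in PB-MP and 0.564% ± 0.0825 in control (SD, n = 3 each). H2-Q5 took 0.0742% ± 0.0109 in PB-MP and 0.0184% ± 0.00673 in control. For each of these 3 genes all PB-MP libraries were above all control libraries (exact permutation p = 0.1, adjusted p = 0.267 over 8 shares), whereas H2-Q6 (exact p = 0.5) and H2-T23 (exact p = 0.2) overlapped. The ratio of H2-Q7 to H2-Q6 reads was 2.56, 3.69 and 3.39 in PB-MP and 2.25, 2.48 and 2.54 in control (exact permutation p = 0.1, adjusted over 8 ratios p = 0.267). B2m gave 0.334, 0.369 and 0.400 reads per heavy chain read in PB-MP and 0.345, 0.444 and 0.400 in control, and the groups overlapped (exact permutation p = 0.5).

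**Figure D3:**
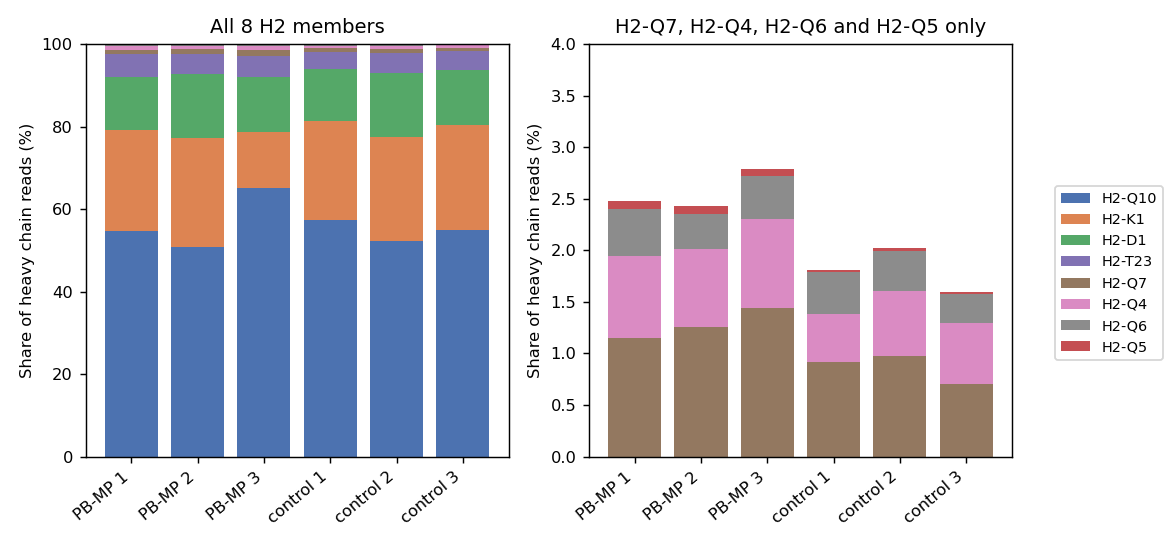
Share of the summed reads of the 8 heavy chain members in each library, PB-MP libraries on the left, as stacked bars in percent; the right panel shows the 4 least abundant genes on an axis of 0 to 4%. PB-MP replicate 3 has the smallest H2-K1 part (13.6%), and the 4 rarer genes together are larger in each PB-MP bar than in each control bar.

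Other genes of the class I pathway, taken from 7 lists of the pathway and its surroundings, showed 0 genes past an adjusted p of 0.05 in edgeR. Over all 7 lists, 91 of 102 genes were tested, 4 were higher and 11 lower at an unadjusted p below 0.05, where 7.35% of all genes were higher and 4.74% lower, and the median log2 fold change was -0.22, with 60 estimates below 0. DESeq2 called 3 of them, Nlrc5 higher and H2-T22 and H2-Eb1 lower, where it called 2.04% of all genes higher and 0.988% lower (3.03% in either direction).

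Among transactivators, 2 of 15 genes were higher and 1 was lower at an unadjusted p below 0.05 (7.35% and 4.74% of all genes), at a median of -0.021, and the summed level overlapped, at 244 to 318 CPM in PB-MP and 277 to 315 CPM in control. Nlrc5, whose protein drives class I promoters, had 25.1, 19.5 and 17.3 CPM in PB-MP, against 10.8, 11.4 and 8.99 CPM in control. Every PB-MP library was above every control library, at a log2 fold change of 0.99 ± 0.21 (edgeR adjusted p = 0.207; DESeq2 adjusted p = 0.00424). The estimate lay between 0.83 and 1.22 over the scalings, tools and left-out libraries. Rfx5, part of the complex that binds the X box, was at 0.50 ± 0.18 (adjusted p = 0.363). Irf1, an interferon-induced activator of class I genes, was at -0.068 ± 0.22. With TMM, the estimate for Nlrc5 had the sign of those for H2-Q4, H2-Q5 and H2-Q7 and the opposite sign to those for the other 7 members. Among the members only the intervals of H2-Q5 and B2m leave out 0. With library size only, H2-Q6 (0.043) and H2-T23 (0.029) were above 0 too. A link between Nlrc5 and the members was not tested.

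For peptide loading and trimming, 8 of 10 estimates were below 0, as were 49.4% of all genes, 3 genes were lower at an unadjusted p below 0.05, as were 4.74% of all genes, and the median was -0.24. The list summed to 1127 to 1266 CPM in PB-MP and 1377 to 1642 CPM in control, with no overlap. All list sums are TMM-scaled, with factors that were higher in every PB-MP library. With library size only, PB-MP values would stand higher and control values lower, which narrows each gap in which PB-MP is lower. Whether the groups stay apart then was not tested for the list sums and list genes. Pathway genes lower at an unadjusted p below 0.05 were 3 in that setting, against 11 with TMM. Of all genes, 1.74% were lower in that setting, against 4.74% with TMM. Tapbp encodes tapasin, which bridges the transporter and the empty heavy chain. It had 58.1, 56.2 and 34.2 CPM in PB-MP, against 91.5, 61.8 and 83.7 CPM in control (log2 fold change -0.67 ± 0.25, edgeR adjusted p = 0.367). Calr, the chaperone calreticulin, was at -0.45 ± 0.15, Sec61a1, a subunit of the translocation channel, at -0.58 ± 0.16, and Tap2, the partner of Tap1, at -0.25 ± 0.22. All 6 estimates of the immunoproteasome and PA28 list were below 0, at a median of -0.40, with 1 lower at an unadjusted p below 0.05, as were 4.74% of all genes. The list had sums of 161 to 205 CPM in PB-MP and 225 to 269 CPM in control, which did not overlap. Psme1, a subunit of the PA28 activator, was at -0.59 ± 0.18 (edgeR adjusted p = 0.296), the inducible proteasome subunit Psmb8 at -0.37 ± 0.17 and Psme2 at -0.25 ± 0.14. For these 3 genes every PB-MP value was below every control value, as for 8.49% of all genes.

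Of 18 further heavy chain symbols, 14 were in the table and 8 were tested, 6 of them with estimates below 0. They summed to 60.3 to 66.4 CPM in PB-MP and 83.8 to 117 CPM in control, with no overlap. H2-T22, whose product binds certain gamma delta T cell receptors, had 34.9, 44.9 and 35.6 CPM in PB-MP, against 82.9, 59.8 and 92.4 CPM in control. The groups did not overlap, and the log2 fold change was -1.03 ± 0.21 (edgeR adjusted p = 0.207; DESeq2 adjusted p = 0.00570). H2-K2, an annotated pseudogene next to H2-K1, had higher values in PB-MP, with 7.28, 3.53 and 7.82 CPM in PB-MP and 3.22, 2.74 and 2.84 CPM in control (1.08 ± 0.33, adjusted p = 0.302). H2-Q1 was at -0.66 ± 0.31. H2-Q3, H2-T3, H2-M9 and H2-M11 had 0 reads in every library, which allows up to 0.0285 to 0.0495 CPM per library (3 reads, counting error only).

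The 34 interferon receptors and targets had a median of -0.15. At an unadjusted p below 0.05, 1 gene was higher and 1 lower, where 7.35% of all genes were higher and 4.74% lower. Mx2, an antiviral GTPase, was at 0.89 ± 0.27 and Bst2, a virus-tethering protein, at -0.60 ± 0.20, with Oas2 at 1.12 ± 0.49. The summed level of the list was 622 to 825 CPM in PB-MP and 738 to 940 CPM in control, which overlapped. MHC-like molecules had a median of 0.18 over 9 tested genes, 7 of them above 0, and 0 passed an unadjusted p of 0.05 in either direction in edgeR, with sums of 1601 to 2425 CPM in PB-MP and 1594 to 1912 CPM in control, which overlapped. Fcgrt, the neonatal Fc receptor that also pairs with B2m, was at -0.41 ± 0.19, Raet1e, a ligand of an NK receptor, at 0.56 ± 0.27 and Cd1d2 at -0.36 ± 0.29. All 9 MHC class II genes had estimates below 0, at a median of -0.47, and 4 were lower at an unadjusted p below 0.05, as were 4.74% of all genes. Their sums were 92.6 to 129 CPM in PB-MP and 137 to 180 CPM in control, with no overlap. H2-Eb1, a class II beta chain, was at -0.66 ± 0.17 (edgeR adjusted p = 0.250; DESeq2 adjusted p = 0.0424), H2-Aa at -0.60 ± 0.19 and Cd74, the invariant chain, at -0.47 ± 0.20.

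**Figure D4:**
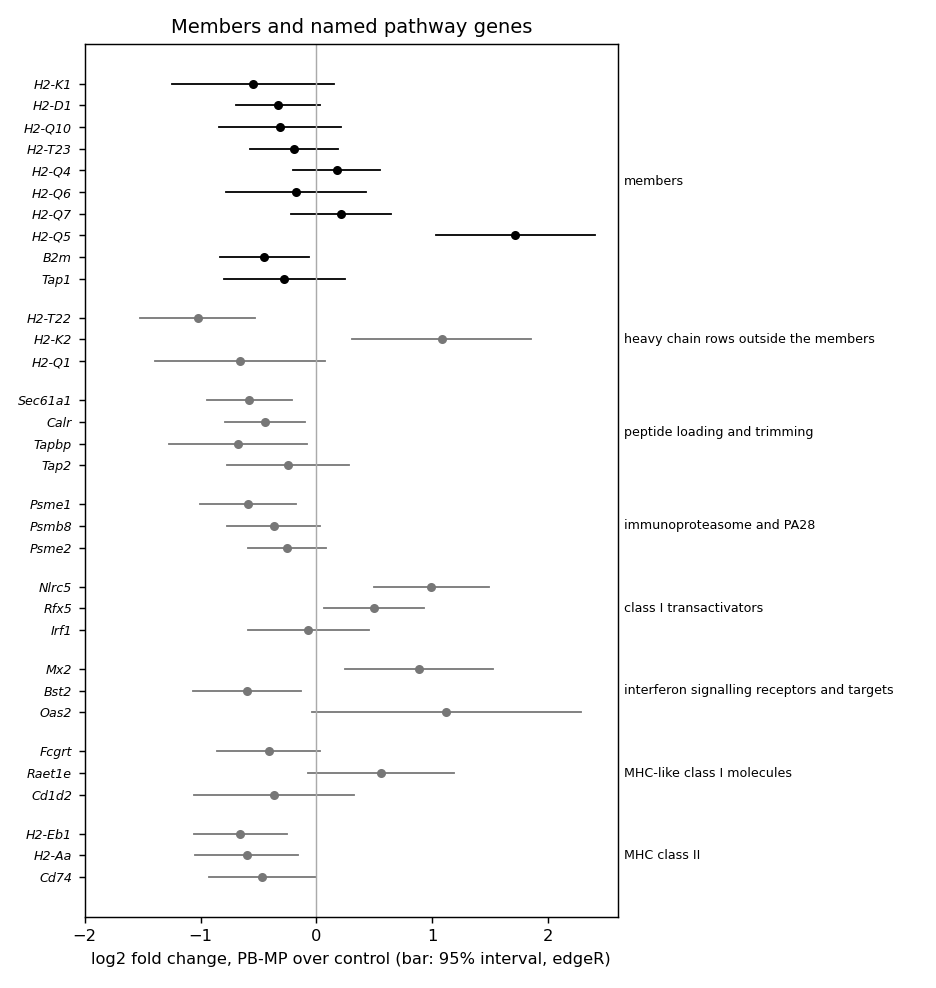
Log2 fold changes of PB-MP over control with 95% intervals (edgeR) for the 10 members (black) and named genes of 7 pathway lists (grey). H2-Q5, Nlrc5, H2-K2, Rfx5 and Mx2 lie right of 0 with intervals that do not reach it. B2m, H2-T22, Sec61a1, Calr, Tapbp, Psme1, Bst2, H2-Eb1, H2-Aa and Cd74 lie left of 0 with intervals that do not reach it.

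The pattern of H2-K1 over the 6 libraries was compared with that of 6456 other genes of at least 10 CPM, by the root-mean-square difference of log2 CPM after each gene's mean was taken off. The closest were Clcn3, a chloride-proton exchanger (0.0598), Arf3, a small GTPase (0.0773), Gsk3b, a protein kinase (0.0796), and Pcsk6, a proprotein convertase (0.0881), beside a median of 0.5 over all genes compared. Clcn3 had 25.0, 25.2 and 13.9 CPM in PB-MP and 34.3, 25.8 and 32.5 CPM in control, so it too was low in PB-MP replicate 3. Of the members, Tap1 was nearest to H2-K1 at 0.256 and H2-D1 next at 0.318. For H2-Q5 the closest were Slc25a22, a mitochondrial glutamate carrier (0.278), Ciz1 (0.288), Vegfa, an angiogenic factor (0.303), and Fgl1, a hepatocyte-secreted protein (0.307), beside a median of 0.955. H2-Q4, the member nearest to H2-Q5, was at 0.798.

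**Figure D5:**
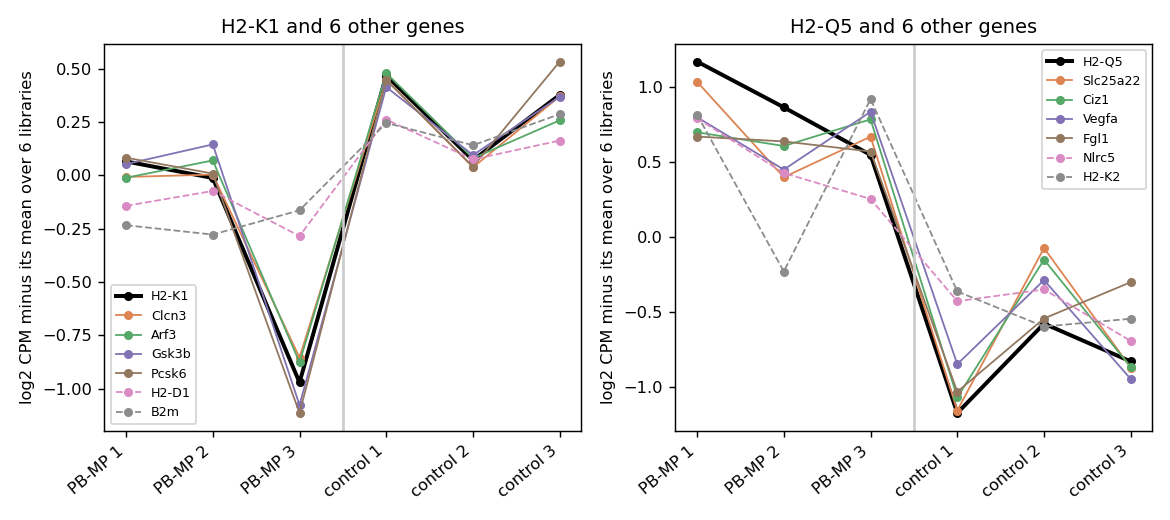
Log2 CPM of each gene minus its mean over 6 libraries, PB-MP libraries left of the grey line and control right of it; solid coloured lines are the 4 genes closest to H2-K1 (left panel) or H2-Q5 (right panel), dashed lines are genes for comparison, and lines only join points of a gene. H2-K1 and its 4 closest genes share the low value in PB-MP replicate 3, which is absent for B2m and much shallower for H2-D1.

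Markers of immune and other liver cells had estimates of differing sign, and their part in the results above was not tested. All 9 T cell markers had estimates below 0 (median -0.41), at a summed 5.19 to 6.28 CPM in PB-MP and 6.15 to 10.8 CPM in control, with Trac, the T cell receptor alpha constant gene, at 0.772 ± 0.144 CPM in PB-MP and 1.39 ± 0.154 CPM in control, and Lck at a log2 fold change of -0.044 ± 0.36. B and plasma cell markers were below 0 for 6 of 7 genes (median -0.82), led by Jchain, the joining chain of antibodies (-2.30 ± 0.67), Mzb1 (-1.53 ± 0.67) and Cd79a (-0.82 ± 0.31), with summed levels that overlapped, at 31.4 to 71.3 CPM in PB-MP and 18.7 to 183 CPM in control. Kupffer cell and macrophage markers were above 0 for 8 of 8 genes (median 0.60), at 156, 138 and 307 CPM in PB-MP and 135, 112 and 145 CPM in control, which overlapped and was highest in PB-MP replicate 3. Of these, Vsig4 was at 0.88 ± 0.36 and Timd4 at 1.20 ± 0.51. The receptor gene Marco was at 4.46, 4.61 and 30.3 CPM in PB-MP and 3.38, 3.51 and 1.55 CPM in control (2.23 ± 0.82). Of the markers, DESeq2 called Jchain lower (adjusted p = 0.00707) and Marco higher (adjusted p = 0.0461), beside 0.988% and 2.04% of all genes. At an unadjusted edgeR p below 0.05, 2 of 9 T cell and 2 of 7 B and plasma cell markers were lower (4.74% of all genes). By that rule 3 of 8 Kupffer cell and macrophage markers were higher (7.35% of all genes), and 0 of the other lists passed. NK cell markers summed to 1.98 to 2.22 CPM in PB-MP and 1.78 to 2.74 CPM in control, with Ncr1 and Eomes too low to test, and 3 of 6 tested genes were above 0 (median 0.19). Dendritic cell and monocyte markers summed to 2.75 to 5.12 CPM in PB-MP and 2.91 to 6.04 CPM in control, with 3 of 6 tested genes above 0 (median 0.099) and Ly6c2 at a log2 fold change of -0.63 ± 0.34. Sinusoidal endothelial markers summed to 75.4 to 127 CPM in PB-MP and 91 to 115 CPM in control, with Stab1 at 0.36 ± 0.21, Clec4g at 0.30 ± 0.35 and Pecam1 at -0.19 ± 0.19. Pan-leukocyte markers summed to 28.4 to 41.1 CPM in PB-MP and 29.9 to 50 CPM in control, with Coro1a at -0.60 ± 0.30, Cd52 at -0.11 ± 0.50 and Laptm5 at -0.037 ± 0.17. Of the hepatocyte markers Apoa1 was at 1.18 ± 0.56, Tat at 0.19 ± 0.21 and Cyp2e1 at -0.31 ± 0.31. No marker of these lists was without reads in all libraries.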

How the data were processed

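Liver RNA was measured in 3 PB-MP and 3 control libraries, made with poly(A) selection and a directional kit per the labels' protocols. Raw counts of reads by gene symbol were deposited by the authors, both as 1 table and as single files, which held identical values in all 6 libraries. The submitters' processing notes name bcl2fastq and GRCm39. The aligner, counter, strand setting and handling of multiply matching reads were not given in the sources used here. Of 56674 rows, 939 share 67 names (0.0308% of reads); only the most abundant of each was used under that name. Genes were kept by filterByExpr (minimum count 10, total 15), leaving 17871, and scaled by TMM. Tests were edgeR's quasi-likelihood F test (version 4.0.16, R 4.3.3), with Benjamini-Hochberg adjustment and a threshold of 0.05. The SE is the size of the log2 fold change divided by the square root of F. Alternatives used other scalings and filters, DESeq2 1.42.0, limma 3.58.1, a replicate block and left-out libraries. Single values were compared by exact permutation (10 splits, smallest p 0.1). The fit was tested on simulated data.

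The members and lists were chosen with earlier results of these data known. Named were all 10 members, the 3 genes of each list with the lowest p among those averaging 1 CPM or more, Tap2, Tapbp, Nlrc5, Irf1 and Psmb8, and the 4 genes closest to H2-K1 and to H2-Q5; other genes were chosen after their values were seen. 1 further gene of the rule is not reported here. Transcript lengths, shared words and gene types came from GENCODE M21 on GRCm38, not GRCm39, and promoters from RefSeq on GRCm38.p6.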

Additional observations from a re-analysis of the deposited data

How the results depend on the processing

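Of the members, 0 passed an adjusted p of 0.05 in every setting but DESeq2, where 1 did (H2-Q5), and of the pathway genes 0 passed, but 3 in DESeq2. H2-Q5 was the 1 member higher at an unadjusted p below 0.05 throughout (7.35% of all genes in the main setting). Members lower by that rule were 1 (B2m) in the main setting, beside 4.74% of all genes. They were 0 with library size only, with no filter and with the replicate block (1.74%, 2.97% and 3.73% of all genes). They were 2 with quality weights (9.56% of all genes), and 0 to 1 with 1 library left out in turn (2.84% to 7.09%). The labels do not say whether same-numbered libraries are paired. Same-numbered libraries deviated together at r of -0.0869, 0.0935 and 0.0816, and the other pairs of a PB-MP and a control library at -0.137 to 0.0821. These values cannot show whether the numbers mark a pairing. Under the block the members higher stayed at 1. Members without overlap were 1 higher and 3 lower, beside 11.4% and 8.49% of all genes. With library size only they were 2 and 1, beside 20.9% and 2.99% of all genes, and H2-K1 and H2-D1 lost their separation. H2-K1 also lost it (2 lower) under upper quartile factors, no filter, the stricter filter and without rRNA and mitochondrial rows. With 1 library left out the counts of members ran from 1 to 2 and from 3 to 6, beside 14% to 20.4% and 11.7% to 19.4% of all genes. With control replicate 2 and PB-MP replicate 3 both left out, chosen after seeing the data, 4 members were lower at an unadjusted p below 0.05 (H2-K1, H2-D1, H2-Q10 and B2m) and 6 were lower without overlap, at edgeR adjusted p of 0.131 and above for those 4; of all genes, 11.4% were lower and 28.5% lower without overlap in that setting. Pathway genes at an unadjusted p below 0.05 were 4 higher and 11 lower, beside 7.35% and 4.74% of all genes. The lower ones were 3 with library size only, beside 1.74% of all genes. With 1 library left out the pathway genes ran from 2 to 6 higher and from 6 to 14 lower. Of all genes, 2.84% to 7.09% were lower in these runs, and 881 to 2010 genes of 18340 to 18791 tested were higher. The log2 fold change of H2-Q6 was 0.043 with library size only and 0.11 with H2-Q7 added, and ran from -0.33 to 0.055 (without control replicate 1) with 1 library left out, and that of H2-T23 was 0.029 with library size only. With H2-K1, H2-D1 and all H2-Q rows added into 1 feature the log2 fold change was -0.36, against 1.72 for H2-Q5 alone, a sum in which H2-Q5 is a minor part. Shares of heavy chain reads that turned in sign were those of H2-K1 (-3.35 percentage points, but 0.595 without PB-MP replicate 3, and 0.78 without both libraries), of H2-Q10 (1.99, but -2.10 and -3.38) and of H2-D1 (0.11, but -0.655, -0.457 and -0.125 without PB-MP replicate 2, control replicate 1 or control replicate 3). With 1 library left out these shares ran from -5.811 to 0.5951 for H2-K1, from -0.6554 to 0.9131 for H2-D1, from -2.098 to 5.005 for H2-Q10, and the summed heavy chain difference ran from -0.50 to -0.24. The cause of these changes was not tested. H2-Q5, at 47 to 257 reads per library, is the member that depth limits most.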

Other observations

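Of 4 transcripts annotated on the opposite strand of a member, 2 had higher values in all PB-MP than in all control libraries, at low levels. Of all genes tested, 11.4% were higher without overlap, and Patl2 was not among the genes tested. Psmb9, opposite Tap1, had lower means in PB-MP with overlap, and Patl2, opposite B2m, had reads in control replicate 1 alone (0.096 CPM). A930015D03Rik, opposite H2-T23, had 0.558, 0.579 and 0.554 CPM in PB-MP and 0.247, 0.297 and 0.162 CPM in control (log2 fold change 1.27 ± 0.37, edgeR adjusted p = 0.284). Gm11131, opposite H2-Q4, had 1.27, 1.19 and 1.18 CPM in PB-MP and 0.837, 0.957 and 0.742 CPM in control (0.52 ± 0.25, edgeR adjusted p = 0.450). Neither passed the threshold, and both were named after their values were seen. The strand setting of the counting is not given, so reads from where such a pair overlaps cannot be told apart.

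H2-K2 gave 0.00761, 0.00390 and 0.0168 reads per H2-K1 read in PB-MP, against 0.00255, 0.00285 and 0.00240 in control (exact permutation p = 0.1, the smallest possible, adjusted p = 0.267 over 8 ratios). The ratio was highest in PB-MP replicate 3, the library in which H2-K1, the divisor, was lowest. A low divisor raises the ratio by itself, and H2-K2 alone had 7.82 CPM in that library and 7.28 CPM in PB-MP replicate 1.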
